A study of Mus musculus with 9 samples.

Results

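10 genes listed as stromal cell markers were followed through osteoblastic induction of MSC2, a clone of stromal cells from mouse bone marrow. The genes were Nt5e, Thy1, Eng, Ly6a, Mcam, Pdgfra, Pdgfrb, Alcam, Cd34 and Nes. They were chosen by name, with earlier results of these data known, and each was taken from the probe sets annotated with that gene alone. Of the 10 genes, 9 were measured among 22180 genes in all, each by 1 probe set. Gene positions below are those of RefSeq on GRCm38.p6, and no source used here tells which exons or UTRs the probes read. No probe set used here was annotated with Ly6a alone, so Ly6a, which encodes the progenitor antigen Sca-1, was not analysed here. Nestin, the product of Nes, is an intermediate filament protein inside the cell, and the other products lie at the cell surface.

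All 9 arrays come from 1 MSC2 clone, labelled as bone marrow of 6-week-old C57BL/6 mice, in 3 groups of 3 arrays. Undifferentiated cells were kept in alpha-MEM that held no ascorbic acid. Cells of the other groups had reached confluence and were then induced for 14 or 28 days. Their DMEM held beta-glycerophosphate at 10 mM, pyruvate at 1 mM, phosphorylated L-ascorbic acid at 0.2 mM and dexamethasone, a glucocorticoid, at 0.1 µM. Serum was at 10% in both media. The 3 arrays of a group are called independent replicates in the series text, but no separate animals or clones are named, so p-values measure the spread between cultures of 1 clone. None of the arrays holds equally old cells without induction, so medium, confluence and time in culture cannot be told apart from induction.

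Stromal cells of bone marrow are recognised by a panel of surface proteins rather than by any single one. CD73, the product of Nt5e, is an enzyme that releases adenosine from AMP outside the cell, endoglin (Eng) is an accessory receptor for TGF-beta family ligands, and PDGFRα and PDGFRβ are receptor kinases for platelet-derived growth factors. MCAM, ALCAM and THY1 are adhesion proteins of the immunoglobulin superfamily, CD34 is a sialomucin of blood progenitors, vessels and some stromal cells, and nestin marks dividing progenitors and cells around vessels. Several products of the panel, though not all, are commonly used to describe undifferentiated stromal cells.

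The values are log2 signals from which each probe set's median over the 9 arrays was subtracted, so 0 is the middle array of that gene and no gene's level is known. For the same reason it cannot be read from these values whether a marker was present or absent in a group. A gene was called where limma's moderated test (two-sided) gave a Benjamini-Hochberg adjusted p under 0.05 over all 22180 genes. In RNA of whole cultures, fewer cells with a transcript and less transcript per cell cannot be told apart. Values spread more widely on undifferentiated arrays (SD over probe sets 0.401 to 0.410) than on 14-day arrays (0.0885 to 0.124) or 28-day arrays (0.150 to 0.166). Most of the 9 arrays held induced cells, so a probe set's median tends to lie among these. Undifferentiated arrays then stand farther from it where they differ, so part of their wider spread follows from the centring. Normalizing the arrays to equal quantiles again forces 1 common spread on them, and its values are given where they differ by more than 1.5 times. Forcing equal quantiles can thus shrink true differences from undifferentiated cells and enlarge those between 14 and 28 days, so it is no neutral check.

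The panel divided. Nt5e, Alcam and Pdgfra rose at least 2-fold in induced cells, Mcam and Nes fell at least 2-fold, and Thy1, Cd34, Pdgfrb and Eng moved little or not detectably. Of these 5 genes past 2-fold, 2 at 14 days (Nt5e and Mcam) and 4 at 28 days (all but Pdgfra) were past it when equal quantiles were forced. At 14 days 6 of the 9 genes were called, beside 35.7% of all genes, with 4 that had risen and 2 that had fallen (18.2% and 17.5% of all genes). At 28 days 7 were called, beside 39.9% of all genes, with 5 that had risen and 2 that had fallen (20.4% and 19.5% of all genes). The median log2 fold change of the 9 was 0.24 at 14 days and 0.25 at 28 days, beside 0.0048 and 0.017 over all genes. Their median size of change, whatever its direction, was 1.27 and 1.42, beside 0.104 and 0.123 over all genes. When equal quantiles were forced, the median size was 0.635 and 0.825, beside 0.122 and 0.112 over all genes, and the median at 14 days was 0.048. The groups being compared did not overlap in 6 of the 9 genes at 14 days and in 7 at 28 days (44.8% and 46.6% of all genes). Both comparisons use the same 3 undifferentiated arrays. The panel was chosen with earlier results of these data known, and all genes were taken with no filter. Values beside those of all genes are therefore descriptive.

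**Figure D1:**
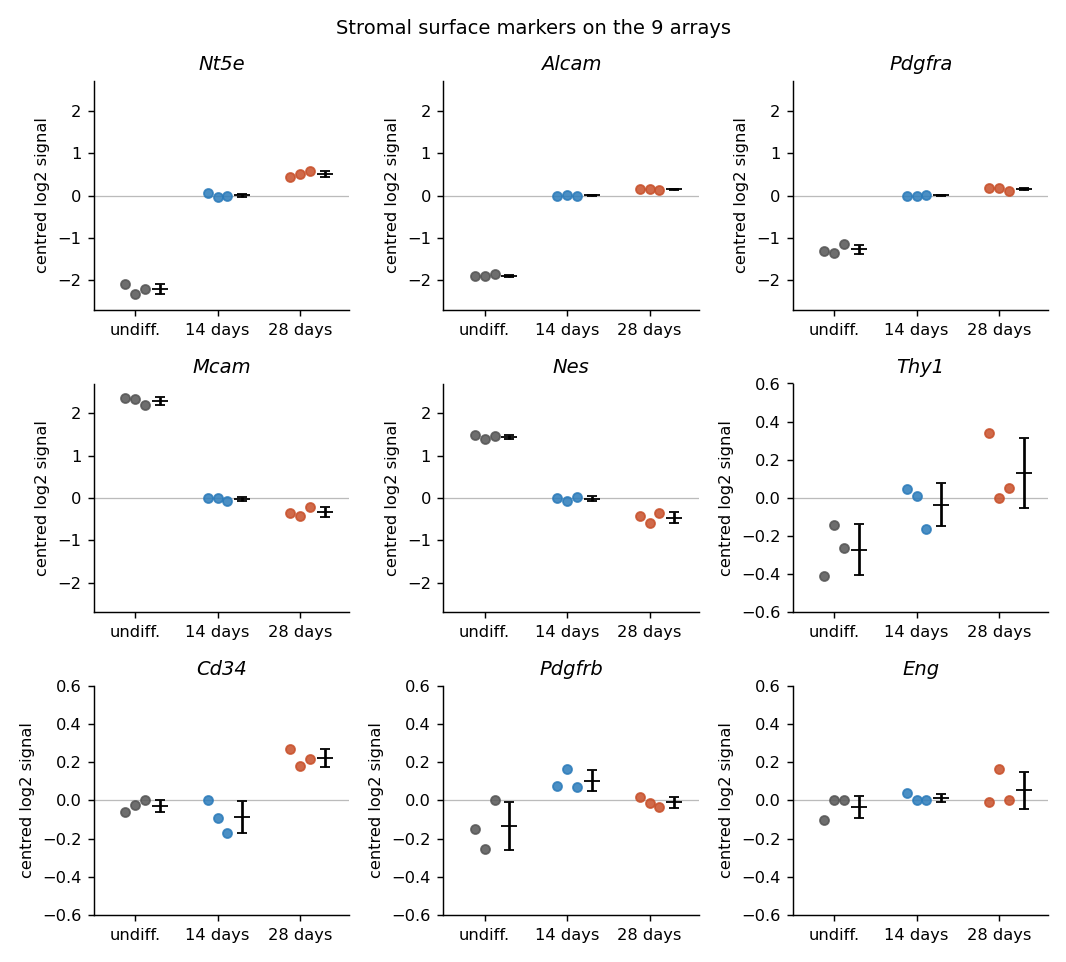
Centred log2 signal (vertical axis) of the 9 measured genes on each array (points) in undifferentiated cells and after 14 and 28 days of induction, with the mean and SD of 3 arrays beside them (black bars). The first 5 genes share a wide axis and the last 4 a narrower one. Undifferentiated arrays stand alone, below the others for Nt5e, Alcam and Pdgfra and above them for Mcam and Nes.

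The sequences just before the starts of the 4 genes that moved most, Nt5e, Alcam, Mcam and Nes, are shown so that the upstream regions of genes that rose and fell can be set side by side. They are the 250 bases before the RefSeq start on GRCm38.p6, 5′ to 3′ on the gene's strand. Upstream stretches were taken for 7 of the 10 genes, and Thy1, Ly6a and Pdgfrb were not among them. Capitals mark matches, on either strand, to 4 motifs: AGAACA, a core hexamer of glucocorticoid receptor sites (TGTTCT on the other strand), GGGCGG, the GC box (CCGCCC on the other strand), TGANTCA, an AP-1 site, and TATAAA, the TATA box (TTTATA on the other strand). Matches may overlap.
Nt5e, chr9:88327359-88327608, plus strand: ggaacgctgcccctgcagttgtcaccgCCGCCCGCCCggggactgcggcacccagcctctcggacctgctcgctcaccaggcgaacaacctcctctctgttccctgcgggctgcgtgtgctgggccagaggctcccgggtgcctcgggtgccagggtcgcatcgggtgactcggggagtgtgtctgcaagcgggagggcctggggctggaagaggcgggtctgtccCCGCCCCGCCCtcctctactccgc
Alcam, chr16:52453082-52453331, minus strand: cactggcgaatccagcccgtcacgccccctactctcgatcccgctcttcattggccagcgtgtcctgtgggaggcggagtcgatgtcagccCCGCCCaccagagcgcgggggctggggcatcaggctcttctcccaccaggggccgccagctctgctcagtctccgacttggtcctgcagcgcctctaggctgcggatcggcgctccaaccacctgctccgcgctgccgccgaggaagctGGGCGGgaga
Mcam, chr9:44134408-44134657, plus strand: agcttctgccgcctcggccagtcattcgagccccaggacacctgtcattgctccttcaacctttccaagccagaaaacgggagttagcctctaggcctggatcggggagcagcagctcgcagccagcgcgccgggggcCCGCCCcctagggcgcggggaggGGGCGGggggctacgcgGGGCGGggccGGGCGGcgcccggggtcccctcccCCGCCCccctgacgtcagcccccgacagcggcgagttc
Nes, chr3:87970843-87971092, plus strand: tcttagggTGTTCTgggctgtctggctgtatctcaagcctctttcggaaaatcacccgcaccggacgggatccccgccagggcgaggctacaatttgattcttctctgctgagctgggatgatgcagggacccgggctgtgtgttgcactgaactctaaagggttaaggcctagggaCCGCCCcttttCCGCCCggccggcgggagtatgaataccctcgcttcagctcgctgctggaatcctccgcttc

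GC boxes were the main match in all 4 stretches, in genes of both directions: 4 before Nt5e, 2 before Alcam, 5 before Mcam and 2 before Nes. The stretches before Pdgfra, which also rose at least 2-fold, and before Eng and Cd34 are not shown and held 0 GC boxes. Such a box stands in 32.7% of the 32851 upstream stretches of this length. The AGAACA hexamer was matched once among the 4, at 242 bases before the start of Nes, which fell, and it stands in 16.1% of all stretches. TGANTCA (6.75% of all) and TATAAA (12.4%) had 0 matches in the 4. The 4 stretches shown were rich in G and C, with 72.0% before Nt5e, 69.2% before Alcam, 73.6% before Mcam and 58.8% before Nes. The median over all was 52.4%, and the stretch before Pdgfra had 54.4%. A match is a description of letters, not evidence of a bound site.

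Among the genes that rose, Nt5e (chromosome 9, 88327609 to 88372089) moved most. Undifferentiated arrays gave -2.08, -2.32 and -2.20, 14-day arrays 0.051, -0.026 and 0.00, and 28-day arrays 0.43, 0.51 and 0.58. The 3 groups did not overlap and stood in the order of time. At 14 days Nt5e was 4.62-fold higher than in undifferentiated cells (95% interval 4.19 to 5.09, log2 2.21, SE 0.063, limma adjusted p = 1.6e-09), which ranked 104 among rises over all genes. At 28 days it was 6.52-fold higher (interval 5.91 to 7.19, limma adjusted p = 2.48e-10). The step from 14 to 28 days was 1.41-fold (log2 0.50, SE 0.063, limma adjusted p = 0.00108). After equal quantiles were forced, the log2 change was 1.06 at 14 days and 0.80 from 14 to 28 days.

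Alcam (chromosome 16, 52248996 to 52453081), whose product CD166 binds itself and the lymphocyte receptor CD6, had the smallest standard error among the 5 genes with large changes. Its arrays read -1.90, -1.90 and -1.86 in undifferentiated cells, -0.0070, 0.019 and 0.00 at 14 days, and 0.15, 0.16 and 0.12 at 28 days. Nearly all of the distance between the states was present by the earlier time. Alcam rose 3.71-fold at 14 days (interval 3.51 to 3.93, log2 1.89, SE 0.036, limma adjusted p = 1.61e-10) and was 4.09-fold above undifferentiated cells at 28 days (limma adjusted p = 4.9e-11). The further 1.10-fold step after 14 days passed the threshold narrowly (log2 0.14, SE 0.036, limma adjusted p = 0.0461), and 15 of 18 alternative analyses lost that call, all 9 analyses that leave out an array among them. After equal quantiles were forced, the log2 changes against undifferentiated cells were 0.92 and 1.09.

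Pdgfra rose and Pdgfrb, its close relative, hardly moved. Pdgfra (chromosome 5, 75151322 to 75198206) read -1.31, -1.35 and -1.15 in undifferentiated cells, 0.00, -0.0065 and 0.012 at 14 days, and 0.18, 0.17 and 0.12 at 28 days. It was 2.41-fold higher at 14 days (interval 2.22 to 2.62, log2 1.27, SE 0.054, limma adjusted p = 2.44e-08) and 2.68-fold higher at 28 days (limma adjusted p = 7.58e-09). With equal quantiles forced, these log2 changes were 0.63 and 0.83. From 14 to 28 days its arrays did not overlap, and the difference of 0.15 was not called (limma adjusted p = 0.137), although it was called with equal quantiles forced (limma adjusted p = 0.0478) and without undifferentiated replicate 3 (limma adjusted p = 0.0491).

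Pdgfrb read -0.15, -0.25 and 0.00 in undifferentiated cells, 0.076, 0.17 and 0.070 at 14 days, and 0.020, -0.014 and -0.036 at 28 days. Its highest values lay at 14 days, and the undifferentiated and 28-day arrays overlapped. The 1.18-fold rise at 14 days (interval 1.07 to 1.30, log2 0.24, SE 0.062, limma adjusted p = 0.0117) was lost without 14-day replicate 2 (limma adjusted p = 0.0523). At 28 days Pdgfrb stood 1.09-fold above undifferentiated cells, with an interval of 0.990 to 1.20 (limma adjusted p = 0.15). Without undifferentiated replicate 2 that log2 difference was 0.065. Without undifferentiated replicate 3 that log2 difference went from 0.12 to 0.19 and was called (limma adjusted p = 0.0171), and with equal quantiles forced it was 0.065. The 28-day arrays lay below the 14-day arrays, and that difference of -0.11 was not called (limma adjusted p = 0.355, and -0.23 with equal quantiles forced).

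The contrast between the PDGF receptors was also taken within each array, as Pdgfra minus Pdgfrb. It averaged -1.13 ± 0.03 in undifferentiated cells, -0.10 ± 0.06 at 14 days and 0.16 ± 0.02 at 28 days (SD, n = 3). The 3 groups did not overlap. The shift of 1.03 at 14 days had an exact two-sided permutation p = 0.1 (adjusted 0.1 over the 3 comparisons), which is the smallest that 3 arrays against 3 can give. With equal quantiles forced, an analysis added after the data were seen, the shift was 0.34 at 14 days and 0.76 at 28 days, beside 1.03 and 1.30, and the groups again did not overlap. The centred values say that the receptors changed unequally and give no ratio of their levels.

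Mcam and Nes fell. Mcam (chromosome 9, 44134658 to 44142727), whose product CD146 marks stromal cells that sit around sinusoids and small vessels, read 2.37, 2.32 and 2.19 in undifferentiated cells, 0.0044, 0.00 and -0.067 at 14 days, and -0.36, -0.43 and -0.20 at 28 days. The 3 groups did not overlap. At 14 days Mcam was 4.97-fold lower (log2 -2.31, SE 0.067, limma adjusted p = 1.66e-09), which ranked 16 among falls over all genes. At 28 days it was 6.17-fold lower (log2 -2.62, limma adjusted p = 4.44e-10). With equal quantiles forced, the change at 14 days was -1.31. The later step of -0.31 (limma adjusted p = 0.0202) was lost without 14-day replicate 1 (limma adjusted p = 0.0798), 14-day replicate 2 (0.0756), 28-day replicate 1 (0.0648) or 28-day replicate 2 (0.0712).

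Nes (chromosome 3, 87971093 to 87980451) read 1.48, 1.40 and 1.46 in undifferentiated cells, 0.00, -0.083 and 0.025 at 14 days, and -0.43, -0.60 and -0.36 at 28 days. These groups, too, were apart from each other on all arrays. Nes was 2.76-fold lower at 14 days (log2 -1.46, SE 0.063, limma adjusted p = 2.64e-08) and 3.75-fold lower at 28 days (log2 -1.91, limma adjusted p = 2.67e-09). It fell by a further 0.44 on the log2 scale between 14 and 28 days (limma adjusted p = 0.00205). With equal quantiles forced, its change was -0.77 at 14 days and -0.67 between 14 and 28 days.

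**Figure D2:**
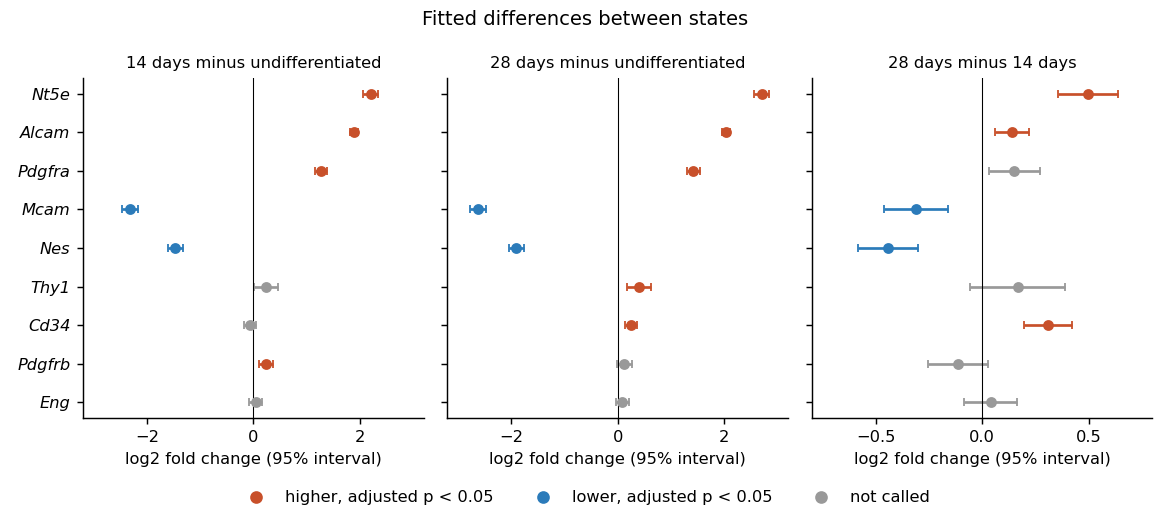
Fitted log2 fold changes (horizontal axis) of the 9 genes with 95% intervals for the 3 comparisons, coloured by call at an adjusted p under 0.05. The last panel has a narrower axis. In it the 5 called genes lie between -0.44 and 0.50. For Nt5e, Alcam, Mcam and Nes this step was smaller than their changes against undifferentiated cells, and for Cd34 it was larger.

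Thy1 and Cd34 were called higher at 28 days and not at 14 days, each by less than 1.5-fold. Thy1 (chromosome 9, 44043384 to 44048579), which encodes a small glycolipid-anchored protein of stromal and nerve cells, read -0.41, -0.14 and -0.26 in undifferentiated cells, 0.045, 0.012 and -0.16 at 14 days, and 0.34, 0.00 and 0.052 at 28 days. Undifferentiated and 14-day arrays overlapped, and 28-day replicate 1 lay above the other 2 of its group. At 14 days the log2 difference was 0.24 (SE 0.10, limma adjusted p = 0.0996), which was called without 28-day replicate 1 (limma adjusted p = 0.0431) and was 0.048 with equal quantiles forced. At 28 days Thy1 was 1.32-fold higher (interval 1.13 to 1.54, limma adjusted p = 0.00777), a call lost with equal quantiles forced (limma adjusted p = 0.182). The difference of 0.17 between 28 and 14 days was not called (limma adjusted p = 0.402). It was 0.062 without 28-day replicate 1, 0.10 without 14-day replicate 3 and 0.31 with equal quantiles forced.

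Cd34 (chromosome 1, 194938821 to 194961292) read -0.060, -0.025 and 0.00 in undifferentiated cells, 0.00, -0.092 and -0.17 at 14 days, and 0.27, 0.18 and 0.22 at 28 days. The 28-day arrays lay above all 6 others. Cd34 was 1.19-fold above undifferentiated cells at 28 days (interval 1.10 to 1.29, limma adjusted p = 0.00223). It was then 1.24-fold above 14-day cells (log2 0.31, SE 0.051, limma adjusted p = 0.00462, and log2 0.53 with equal quantiles forced). The 14-day difference of -0.059 was not called (limma adjusted p = 0.45, -0.018 without 14-day replicate 3, -0.10 without 14-day replicate 1 and -0.21 with equal quantiles forced). A second probe set, annotated with Cd34 and 1 further gene, read 0.00, -0.029 and 0.15 in undifferentiated cells, -0.11, -0.062 and -0.027 at 14 days and 0.11, 0.18 and 0.13 at 28 days. With it averaged in, the 28-day change was 0.17 and stayed called (limma adjusted p = 0.00669), an analysis chosen after the values were seen.

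Eng (chromosome 2, 32646595 to 32682669) was not called in any of the 3 comparisons. Its arrays read -0.10, 0.00 and 0.00 in undifferentiated cells, 0.039, 0.00 and 0.00 at 14 days, and -0.0098, 0.17 and 0.00 at 28 days. It was exactly 0 on 5 of the 9 arrays, and the origin of these ties was not tested. The difference was 1.03-fold at 14 days (interval 0.948 to 1.12, limma adjusted p = 0.602) and 1.06-fold at 28 days (interval 0.975 to 1.16, limma adjusted p = 0.265). Leaving out 1 array in turn gave log2 differences of 0.013 to 0.063 at 14 days and 0.029 to 0.12 at 28 days, lowest without undifferentiated replicate 1 and 28-day replicate 2 in that order. Between 28 and 14 days the log2 difference was 0.04 (limma adjusted p = 0.757). The intervals against undifferentiated cells reach no higher than 1.16-fold, and they do not show that Eng was the same in all groups.

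Between 14 and 28 days 5 of the 9 genes were called, beside 7.39% of all genes. Nt5e, Cd34 and Alcam rose and Nes and Mcam fell (2.72% and 4.67% of all genes). None of the 5 changed 2-fold, and 24 of all genes were both called and changed 2-fold. The arrays did not overlap in 7 of the 9 genes, where 24.4% of all genes did not. The count was 3 where 14-day replicate 1 or 2 or 28-day replicate 1 or 2 was left out. Nt5e, Nes and Cd34 kept their call without each array in turn.

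**Figure D3:**
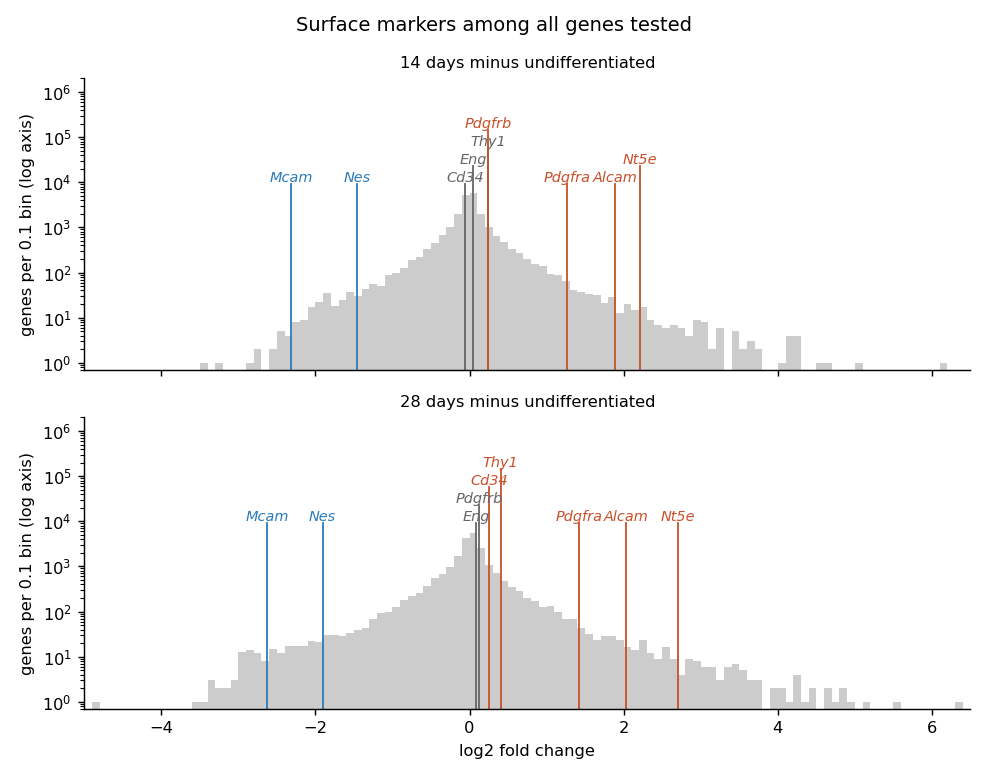
Number of genes (log axis) in bins of 0.1 of the log2 fold change over all 22180 genes (grey), with the 9 genes as labelled lines coloured by call (orange higher, blue lower, grey not called), at 14 and 28 days against undifferentiated cells. Mcam and Nes lie in the lower tail, Pdgfra, Alcam and Nt5e in the upper tail, and the other 4 near the centre.

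The genes whose 9 array values lay nearest to those of each called marker were listed by Euclidean distance in log2 units. Names of gene models, clones, small RNAs, mitochondrial genes, and olfactory and vomeronasal receptors were left out of this listing. Nearest to Nt5e were Cldn15 (0.307), Krt14 (0.331) and Pcdhb18 (0.354), which encode a claudin, a keratin and a protocadherin. Alcam was nearest to Amigo2 (0.131), Cyp2s1 (0.164) and Folr1 (0.168), the first of them a gene of another adhesion protein and the last the gene of a folate receptor. Pdgfra was nearest to Frmd4b (0.136), Mrc2 (0.138) and Mylk (0.162), with Mrc2 encoding a collagen uptake receptor and Mylk a myosin kinase. Mcam was nearest to Ltbp1 (0.257), Cd44 (0.287) and Actg2 (0.414), which encode a binding protein of latent TGF-beta, the hyaluronan receptor and a smooth muscle actin. Nes was nearest to Oxr1 (0.142), Cdk1 (0.183) and Lmnb1 (0.190), with Cdk1 encoding a kinase of mitosis and Lmnb1 a lamin. For Thy1 the nearest were Khdc1a (0.244), Otop2 (0.256) and Skiv2l (0.261), and for Cd34 Setbp1 (0.174), Amigo1 (0.180) and Smc1b (0.186). For Pdgfrb they were Tmem52b (0.111), Pusl1 (0.135) and Tmem117 (0.139). That neighbours have changes of like size and direction follows from how the distance is taken. These distances describe 9 arrays in 3 states, and many genes share such a shape.

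Markers of dividing cells fell beside Mcam and Nes. All 5 that were measured (Mki67, Top2a, Cdk1, Bub1 and Plk1) were called lower in each of the 3 comparisons, with medians of -1.97 at 14 days, -2.94 at 28 days and -0.99 between them (-1.05, -2.81 and -1.77 with equal quantiles forced). Over all genes, 17.5%, 19.5% and 4.67% were called lower in these comparisons. The mean centred value of the 5 was 1.91 to 1.96 on undifferentiated arrays, -0.043 to 0.027 on 14-day arrays and -0.94 to -0.89 on 28-day arrays. Their part in the changes of the stromal markers was not tested.

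In the following accounts of related genes, each pair of values is the log2 fold change at 14 and at 28 days against undifferentiated cells. A second pair in parentheses gives the same with equal quantiles forced, where this moved either value by more than 1.5 times or changed a call, and medians are treated likewise. No call of these genes turned its sign under that setting. Counts of rises and falls in each list stand beside 18.2% and 17.5% of all genes at 14 days, and 20.4% and 19.5% at 28 days.

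The other surface molecules of stromal cells divided as well. Of 24 genes, 12 rose and 6 fell at 14 days, and 12 rose and 6 fell at 28 days, with medians of 0.16 and 0.18. Anpep, which encodes the aminopeptidase CD13, rose by 2.33 and 2.84 (1.12 and 1.94), and Cd55, which encodes a brake on complement, rose by 1.77 and 1.62 (1.12 and 0.78). Cd44 stood at -2.29 and -2.59 (-1.31 and -1.72). Itga5, a fibronectin receptor chain gene, stood at -0.86 and -1.13 (-0.48 and -0.86), and Cdh2, the gene of N-cadherin, at -0.83 and -1.16 (-0.46 and -0.95). Of the 18 calls at each time, 3 at 14 days and 1 at 28 days were lost with equal quantiles forced.

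Genes of PDGF ligands, which bind the products of Pdgfra and Pdgfrb, moved with opposite signs. Pdgfc rose by 2.55 and 2.53 (1.27 and 1.22), Pdgfd by 2.06 and 1.94 (1.17 and 0.93) and Pdgfb by 0.92 and 0.80 (0.64 and 0.41). Pdgfa stood at -0.21 and -0.32 (-0.17 and -0.29), and its 14-day call was lost with equal quantiles forced. Pdgfa and Pdgfb are named to complete the ligands, after their values were seen. Of the 15 PDGF ligand and signalling genes, 8 rose and 3 fell at 14 days, and 8 rose and 5 fell at 28 days, with medians of 0.25 and 0.23 (0.18 and 0.14). Nrp1, which encodes a co-receptor of several growth factors, stood at -0.54 and -0.83 (-0.30 and -0.74), and Gab1, a docking protein gene, at -0.32 and -0.40 (-0.21 and -0.29).

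Around CD73, 8 of 14 listed genes of adenosine and extracellular nucleotides were measured, with 2 up and 2 down at 14 days and 3 up and 3 down at 28 days, with medians of 0.063 and 0.029 (0.041 and 0.0055). Enpp3, which encodes an ecto-enzyme that cleaves nucleotides, rose by 1.19 and 1.47 (0.60 and 1.01). The adenosine receptor gene Adora3 rose by 0.23 and 0.27 (0.18 and 0.20), and its 14-day call was lost with equal quantiles forced. Adk, the gene of the kinase that turns adenosine into AMP inside the cell, stood at -0.34 and -0.45. The nucleoside transporter gene Slc29a1 stood at -0.25 and -0.24 (-0.26 and -0.19), its 28-day call being lost with equal quantiles forced, and Slc29a2 stood at -0.19 and -0.44 (-0.10 and -0.47), called at 28 days.

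Beside endoglin, the 17 measured genes of TGF-beta ligands, receptors and mediators had 4 up and 6 down at 14 days and 6 up and 6 down at 28 days, with medians of 0.012 and 0.036 (-0.00041 and 0.027). Tgfbr3, the gene of betaglycan, another accessory receptor, rose by 0.70 and 0.84 (0.36 and 0.52), and Tgfb1 rose by 0.59 and 0.70 (0.31 and 0.45). Smad3, a signal transducer gene, stood at -0.73 and -0.62 (-0.69 and -0.38), and Tgfb2 at -0.56 and -0.55 (-0.44 and -0.35). Id1, a target of BMP signals, stood at -0.57 and -0.21 (-1.26 and -0.11). Between 14 and 28 days Id1 rose by 0.37 (limma adjusted p = 0.00879), and by 1.15 with equal quantiles forced. With equal quantiles forced, 2 of 10 calls of this group at 14 days and 4 of 12 at 28 days were lost, the 28-day call of Id1 among them.

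Of the 13 measured genes of the Ly6 and uPAR family, to which Ly6a belongs, 2 rose and 2 fell at each time, with medians of -0.025 and 0.029 (-0.056 and 0.024). Cd59a, which encodes an inhibitor of complement, rose by 0.74 and 0.83 (0.40 and 0.49). Ly6e rose by 0.25 and 0.83 (0.078 and 1.00), and its 14-day call was lost with equal quantiles forced. Plaur, the gene of the urokinase receptor, stood at -1.02 and -0.94 (-0.64 and -0.48), and Ly6f at -0.78 and -0.83 (-0.50 and -0.54). Genes of this family have close copies, so a probe set may read more than 1 of them.

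Adhesion molecules of the immunoglobulin superfamily and their partners had 6 of 15 up and 4 down at 14 days, and 5 up and 5 down at 28 days, with medians of 0.067 and 0.017 (0.11 and 0.0059). Bcam, the gene of a relative of MCAM that binds laminin, rose by 1.07 and 1.22 (0.58 and 0.77), where Mcam fell. The tight junction gene F11r rose by 0.94 and 1.02 (0.47 and 0.57), and Lama4, the gene of a laminin chain that MCAM binds, rose by 0.72 and 1.08 (0.40 and 0.97). Nectin3 stood at -0.96 and -1.52 (-0.53 and -1.40) and the integrin chain gene Itgb3 at -0.77 and -1.16 (-0.43 and -1.02). Of the 10 calls at each time, 0 at 14 days and 1 at 28 days were lost with equal quantiles forced.

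CD34 is a sialomucin, a broad class of proteins. Of 5 other sialomucin genes that were measured, 2 rose at each time and 0 fell, with medians of 0.18 and 0.23 (0.29 and 0.24). Podxl rose by 1.27 and 1.04 (1.07 and 0.51). Emcn rose by 0.93 and 0.68 (1.07 and 0.40), and its 28-day call was lost with equal quantiles forced. Of 12 intermediate filament and lamin genes, the family of Nes, 4 rose and 3 fell at 14 days and 5 rose and 3 fell at 28 days (medians 0.056 and 0.046). Des, the desmin gene, rose by 0.61 and 0.53 (0.45 and 0.28), and Synm rose by 0.54 and 0.53 (0.32 and 0.28). Lmnb1 stood at -1.38 and -1.92 (-0.68 and -1.55), near the values of Nes, and Lmna at -0.52 and -0.57 (-0.33 and -0.37). With equal quantiles forced, 3 of the 7 calls of this group at 14 days and 3 of the 8 at 28 days were lost.

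**Figure D4:**
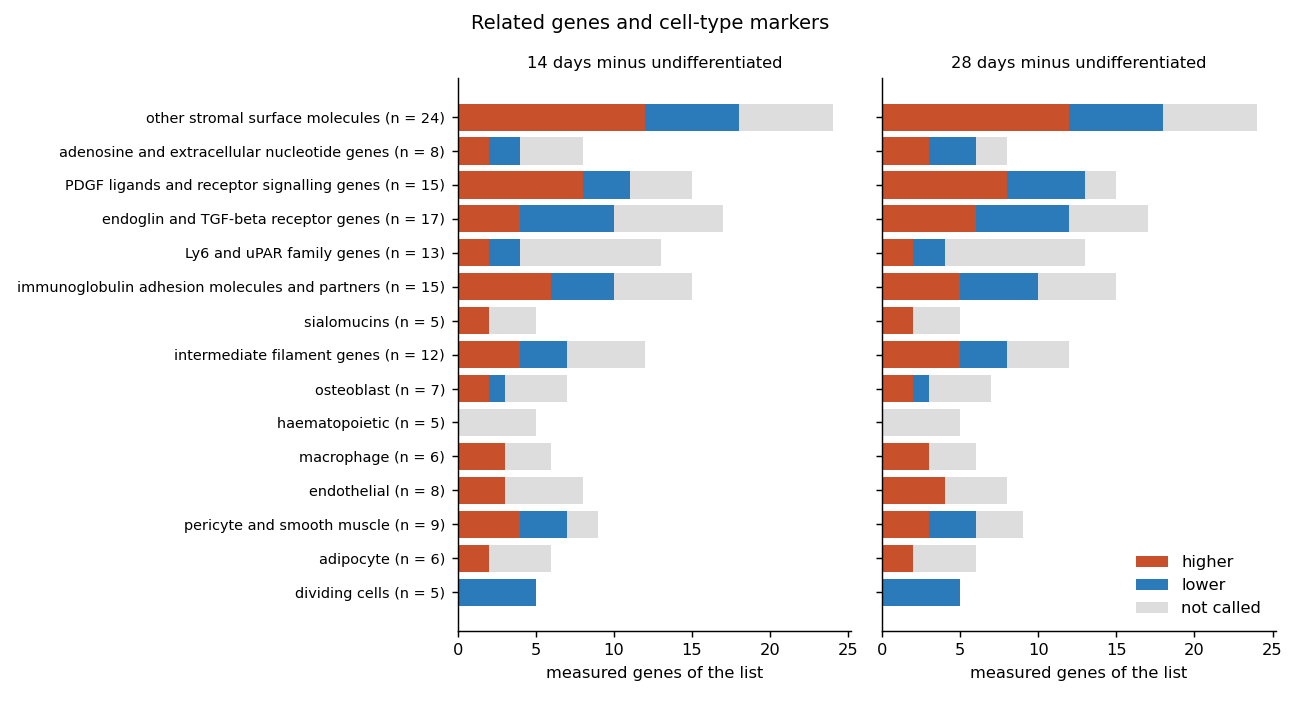
Number of measured genes (horizontal axis) in each list that were called higher, called lower or not called at 14 days and at 28 days against undifferentiated cells. All 5 measured markers of dividing cells were lower, the 5 measured blood markers were not called, and 7 of the 8 lists of related genes held genes of both directions.

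Some markers of other cells also moved. None of the 5 measured blood cell genes (Ptprc, Itgam, Cd3e, Cd79a and Kit) was called by limma in the 3 comparisons, and 0 of them had an unadjusted p under 0.05. Their mean centred value ran from -0.027 to 0.00043 on undifferentiated arrays, from -0.0032 to 0.025 at 14 days and from 0.00035 to 0.076 at 28 days. Of 8 endothelial genes, which matter here because MCAM, endoglin and CD34 are also carried by vessels, 3 rose at 14 days and 4 at 28 days. Over all genes, 35.7% and 39.9% were called at these times. Tek, Tie1, Vwf and Esam were not called at either time, and the medians of the 8 endothelial genes were 0.066 and 0.094 (0.082 and 0.062). Kdr, the gene of a VEGF receptor, rose by 1.91 and 1.91 (1.00 and 0.95). Pecam1 stood at 0.18 and 0.15 (0.17 and 0.094) and Cdh5 at 0.066 and 0.14 (0.051 and 0.12), and their calls were lost with equal quantiles forced. Emcn lost its 28-day call as well, which left 2 of the 3 calls at 14 days and 1 of the 4 at 28 days. The mean of the 8 was -0.39 to -0.29 on undifferentiated arrays, 0.022 to 0.097 at 14 days and -0.0076 to 0.023 at 28 days.

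Of 9 pericyte and smooth muscle genes 4 rose and 3 fell at 14 days, and 3 rose and 3 fell at 28 days. Cnn1, the calponin gene, stood at -1.99 and -2.38 (-1.05 and -1.63), in the direction of Mcam, while Notch3 rose by 0.78 and 0.93 (0.36 and 0.57). Acta2 and Tagln also fell at both times. Des and Myh11 also rose at both times, and Kcnj8 rose at 14 days. The 14-day call of Myh11 was lost with equal quantiles forced. The medians of the 9 pericyte and smooth muscle genes were 0.050 and 0.072. The mean of the 9 ran from 0.077 to 0.10 on undifferentiated arrays, from -0.0014 to 0.038 at 14 days and from -0.024 to 0.0032 at 28 days. Of 6 macrophage genes 3 rose at each time, with Cd14 up by 2.56 and 2.74 (1.19 and 1.44) and Csf1r by 1.81 and 2.10 (0.87 and 1.30). Cd68 rose by 0.30 and 0.75 (0.10 and 0.83), and its 14-day call was lost with equal quantiles forced. Adgre1, Mrc1 and Lyz2 were not called at either time, and the medians of the 6 macrophage genes were 0.14 and 0.39 (0.048 and 0.46). The mean of the 6 was -0.84 to -0.68 on undifferentiated arrays, -0.062 to 0.021 at 14 days and 0.088 to 0.16 at 28 days. Of 6 adipocyte genes 2 rose at each time, with Fabp4 up by 3.50 and 3.63 (1.74 and 1.90) and Lpl by 0.42 and 0.71 (0.046 and 0.58), and the calls of Lpl were lost with equal quantiles forced. Pparg, Adipoq, Plin1 and Cebpa were not called at either time, and the medians of the 6 adipocyte genes were 0.13 and 0.089 (0.078 and 0.062). The mean of the 6 was -0.71 to -0.62 on undifferentiated arrays, -0.033 to 0.055 at 14 days and -0.013 to 0.13 at 28 days. The part of these genes in the changes of the stromal markers was not tested.

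The osteoblast label of the induced groups was set against 7 osteoblast genes. Alpl, the alkaline phosphatase gene, rose by 0.50 and 0.46 (0.45 and 0.29), with both calls lost once equal quantiles were forced, and Omd, the osteomodulin gene, rose by 1.42 and 1.51 (0.80 and 0.88). Col1a1 stood at -0.26 and -0.39. Sp7, Ibsp, Bglap and Dmp1 were not called at either time (limma adjusted p from 0.104 to 0.915).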

How the data were processed

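Total RNA of 9 biotin-labelled mouse arrays was measured, 3 in each of 3 states. Per the submitters' processing notes the authors used RMA, and the deposited values are taken as log2 because RMA works in log2. No source used here names its software or version. All 33794 probe sets have medians of 0 across arrays, so centring is read from the values, and higher values are assumed to mean more RNA. Values run from -6.33 to 3.42, and 15.2% to 28.1% of an array's values are exactly 0. RNA integrity numbers averaged 9.9, per the labels.

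Probe sets were named through GEO's platform annotation: 23521 have 1 gene, 1814 have several and 8459 none. Of the first, 23328 matched RefSeq genes (GRCm38.p6) through Entrez identifiers. Probe sets of 1 gene were averaged, giving 22180 genes, with no filter. limma 3.58.1 in R 4.3.3 fitted 1 mean per group over the 9 arrays (residual degrees of freedom 6, prior 3.81). Benjamini-Hochberg adjustment ran over all genes. Fits were tested on simulated data. The number of arrays limits the precision.

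Members, lists and the naming rule were chosen with earlier results of these data known. The rule names all members, the up to 2 largest called rises and falls per related list and time, the 3 nearest genes of each called member, and the cell-type markers. Not every such gene is printed. Alternatives were equal quantiles, the probe set of largest SD, only the groups compared, a replicate block, a trended robust prior, no genes of lowest SD, an adjusted p under 0.01, a test against a 1.5-fold change, and each array left out. A filter on dim probes needs levels, which centring removed.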

Additional observations from a re-analysis of the deposited data

How the results depend on the processing

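Over the alternatives, 448 of 483 member values kept their direction and their side of the threshold, 30 lost a call, 4 gained one, and 1 changed sign: Eng between 14 and 28 days, which ran from -0.018 (without 28-day replicate 2) to 0.070 when 1 array was left out, uncalled throughout. Calls of Nt5e, Alcam, Pdgfra, Mcam and Nes against undifferentiated cells held at both times in all 18 alternatives, 1 of them (the second probe set of Cd34) chosen after seeing the data, with sizes reduced by equal quantiles. Over all genes, 5200 were called at 14 days and 5662 at 28 days with equal quantiles forced, beside 7920 and 8845, and limma's treat test against a 1.5-fold threshold called 1582 and 2010. Between 14 and 28 days 1639 genes were called, 813 at an adjusted p under 0.01, 28 by treat, and 991 to 1573 when 1 array was left out. Of the members 5 were called there, 3 at an adjusted p under 0.01, 3 to 5 with 1 array left out, and 0 by limma's treat (0 at an unadjusted p under 0.05).

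Replicate numbers did not pair the arrays: same-numbered arrays of different groups had correlated deviations of -0.139 to 0.0677, 0 of 9 pairs lay over 0.1, and 4 of 9 arrays correlated best with their own number. With the replicate block, 6, 7 and 4 members were called in the 3 comparisons, beside 6, 7 and 5, and 7846, 8726 and 1390 of all genes. Alcam between 14 and 28 days was the member whose call the block moved (limma adjusted p = 0.0969). Centring leaves no signal over background to judge dim probe sets.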
